A study of Mus musculus with 16 samples.

Results

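The growth hormone axis of the liver was followed through 10 genes, taken by symbol from the 27288 gene identifiers of the deposited table: the receptor gene Ghr, its signal transducer Stat5b, the secreted products Igf1 and Igfals, the feedback inhibitors Socs2 and Cish, the transcription regulators Bcl6 and Cux2, and the male-biased targets Hsd3b5 and Mup20. All 10 were among the 13256 genes with a mean of at least 10 normalised reads over the 16 libraries, but Cux2 reached that mean only through its values on ethanol. RNA sequencing was done on livers of C57BL/6 mice aged 8 to 10 weeks, with 4 libraries in each of 4 groups. The groups were liver-specific DRP1 knockout mice after Gao-Binge ethanol, wild-type mice after Gao-Binge ethanol, liver-specific DRP1 knockout mice on the control treatment, and wild-type mice on the control treatment. The Gao-Binge model pairs a period of ethanol feeding with a final ethanol gavage, and DRP1, encoded by Dnm1l, is the GTPase that divides mitochondria. The labels call the wild-type mice paired, give neither the Cre line nor the sex, and do not say whether each library came from its own mouse, so p-values measure the spread between these libraries.

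Growth hormone from the pituitary binds its receptor on hepatocytes, which activates the kinase JAK2, and JAK2 phosphorylates STAT5A and STAT5B. In liver STAT5B drives Igf1, the main circulating growth factor under growth hormone, and Igfals, which holds IGF1 in a long-lived serum complex, and it also drives Socs2 and Cish, which damp the same receptor. In mice growth hormone is released in pulses in males and more evenly in females, and this pattern sets many sex differences of liver genes: BCL6 is a male-biased repressor that binds STAT5 sites, CUX2 is a female-enriched repressor of male-biased genes, and Hsd3b5 and Mup20 are male-biased targets. The pulses mean that RNAs with a quick response, such as Cish, Socs2 and Bcl6, depend on when a liver was taken.

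Values are normalised reads, that is reads divided by 1 size factor per library, and depth was 11425136 to 13864862 reads per library. Every difference between groups was tested with limma on log2(value + 1), and a gene was called where the Benjamini-Hochberg adjusted p over the 13256 genes was under 0.05. Fold changes are on that scale and understate changes of low genes. A ± after a log2 change or difference is the standard error from limma, and a ± after a mean is the SD. Dnm1l was not called between the genotypes, with log2 differences of -0.049 ± 0.11 on control (adjusted p = 0.825, limma) and 0.11 ± 0.11 on ethanol (adjusted p = 0.59, limma), so a total over the gene gives no check of the genotype, and "knockout" is used as the libraries are labelled. All 16 libraries had high Ddx3y, 1023 to 2107 normalised reads, and at most 9.3 of Xist, the pattern of male tissue. Knockout ethanol library 1 carried 2563 normalised reads of the pancreas gene Ctrb1, against at most 4.81 in any other library, and knockout ethanol library 4 carried 1506 of the red cell gene Hba-a1, against at most 418, so results on the ethanol knockout group were also fitted without both. Summed reads of 12 macrophage markers were 5662 to 7105 in knockout ethanol, 1094 to 1615 in wild-type ethanol, 6550 to 10357 in knockout control and 2824 to 6120 in wild-type control libraries, and 12 of the 12 were called higher in knockout on ethanol and 7 of 12 on control. Summed reads of 10 hepatocyte markers were 1070050 to 1635340 in knockout ethanol, 1366380 to 1958780 in wild-type ethanol, 1220510 to 1271850 in knockout control and 1462680 to 1740980 in wild-type control libraries, lower in all knockout control than in all wild-type control libraries as Ghr, Igf1 and Hsd3b5 were, and their part in those was not tested. Of these 10 hepatocyte markers, 1 was called lower and 0 higher in knockout on control, where 11.6% of all genes were called. On ethanol 2 were lower and 0 higher in knockout, where 9.88% of all genes were called. Ethanol gave 4 higher and 0 lower of the 10 in wild type, and 2 higher and 1 lower in knockout. With ethanol in wild type, 10 of 12 macrophage markers were lower, 5 of 8 endothelial markers higher and, of 10 stellate cell markers, 4 higher and 1 lower; in knockout 2 of 12 macrophage markers were lower, 4 of 8 endothelial higher and 4 of 10 stellate higher. Endothelial sums were 2552 to 3109 in knockout ethanol, 2958 to 3505 in wild-type ethanol, 1545 to 2401 in knockout control and 1871 to 2217 in wild-type control libraries, and stellate sums were 3738 to 4378 in knockout ethanol, 3882 to 4458 in wild-type ethanol, 2724 to 3960 in knockout control and 2875 to 3536 in wild-type control libraries; their part in the ethanol results was not tested. In whole liver, fewer cells of a type and less RNA per cell cannot be told apart.

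Knockout control livers had lower Ghr, Igf1 and Hsd3b5 than wild-type control livers, 3 of 10 called lower and 0 higher, where 11.6% of all genes were called, 5.24% lower and 6.4% higher. On ethanol the knockout livers had higher Mup20 and lower Cux2, 1 of 10 in each direction, where 9.88% of genes were called, 6.13% higher and 3.75% lower. Ethanol in wild type lowered Ghr, Igfals, Hsd3b5 and Mup20 and raised Cish and Cux2, so 6 of 10 were called where 38% of all genes were, 18.9% higher and 19% lower. Cux2, counted in both of these ethanol comparisons, passed the filter only through its values on ethanol. Ethanol in knockout lowered Ghr and Hsd3b5 and raised Igf1, 3 of 10 called where 19.2% of all genes were, 10.2% higher and 9.01% lower. Per kilobase of exon, the mean level over the 16 libraries ran from 27297 normalised reads for Mup20 through 871 for Igf1, 620.3 for Hsd3b5, 589.7 for Ghr, 261 for Igfals and 100.5 for Stat5b to 48.6 for Bcl6, 36.7 for Cish, 27.3 for Socs2 and 5.93 for Cux2.

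**Figure D1:**
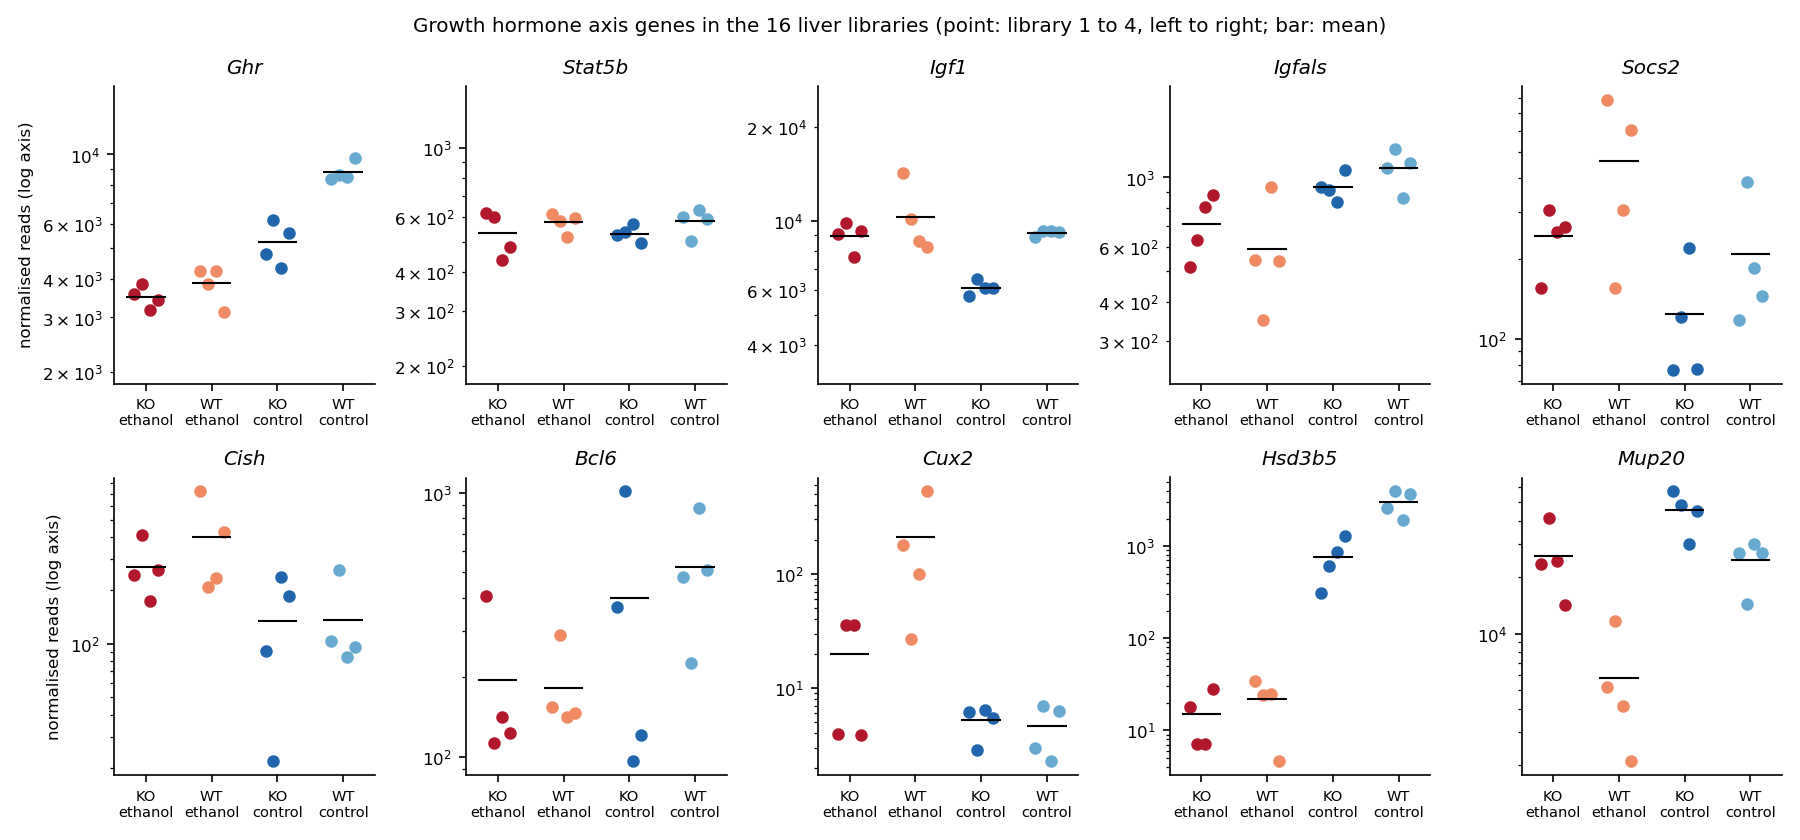
Normalised reads of each of the 10 genes on log axes, 1 point per library and a bar at the group mean, for knockout and wild-type livers on ethanol and on control. Ghr was highest in wild-type control libraries, Hsd3b5 fell below 40 normalised reads in every ethanol library, and Cux2 left single digits only in ethanol libraries.

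**Figure D2:**
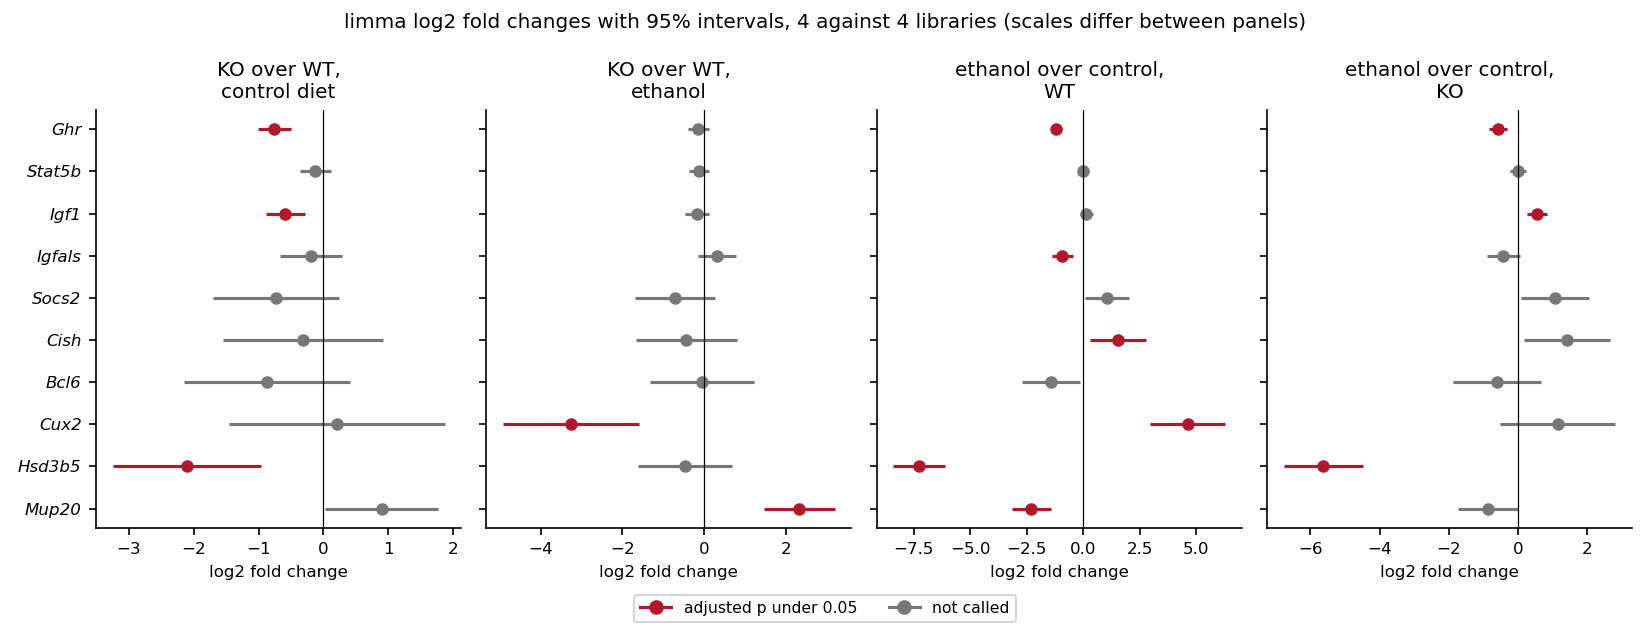
limma log2 fold changes of the 10 genes with 95% intervals in 4 comparisons of 4 against 4 libraries, with called genes in red and the others in grey. The intervals of Ghr and Stat5b were the narrowest and those of Cux2 the widest, and the horizontal scales differ between panels.

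Ghr, on chromosome 15 (ENSMUSG00000055737, chr15:3317760-3583492, minus strand, GRCm38), had 3559, 3840.3, 3176 and 3408 normalised reads in the 4 knockout ethanol libraries and 4229.6, 3851, 4236 and 3134 in the wild-type ethanol libraries. It had 4810.4, 6186, 4319 and 5582 in knockout control and 8324, 8561, 8451 and 9745 in wild-type control libraries. All wild-type control libraries were above all knockout control libraries, and the knockout control libraries were above every ethanol library of either genotype, while the ethanol groups overlapped. The knockout control level was 0.591 of the wild-type control level (95% interval 0.494 to 0.708, adjusted p = 0.000718, limma). Ethanol took it to 0.438 of control in wild type (0.366 to 0.525, adjusted p = 3.21e-06, limma) and to 0.674 of control in knockout (0.563 to 0.807, adjusted p = 0.00442, limma). Between the ethanol groups the fold was 0.909 (0.760 to 1.09, adjusted p = 0.542, limma), not called, with means of 3496 ± 278 and 3863 ± 518 normalised reads in knockout and wild type (SD, n = 4 each).

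Stat5b (ENSMUSG00000020919, chr11:100780731-100850724, minus strand), the transducer, was called in no comparison. Its group means were 534 ± 88.5 normalised reads in knockout ethanol, 579 ± 41.9 in wild-type ethanol, 531 ± 30.7 in knockout control and 582 ± 55.1 in wild-type control livers (SD, n = 4 each). All 4 groups overlapped, and the log2 differences ran from -0.13 to -0.0054. Its interval for ethanol in wild type was 0.843 to 1.18 in fold.

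Of 17 genes of growth hormone receptor signalling, Ghr and Stat5b included, 2 were called higher and 3 lower in knockout on control. The median log2 difference was -0.12, and 11.6% of all genes were called. Jak2, the kinase on the receptor, had 149, 151, 150.5 and 178 normalised reads in wild-type ethanol and 266, 289, 257 and 258 in wild-type control libraries, which did not overlap. Ethanol in wild type lowered it to 0.587 of control (adjusted p = 3.12e-05, limma). In all, 4 genes of the 17 were higher and 5 lower, where 38% of all genes were called. Among the 4 higher was Grb10, an adaptor that restrains insulin and growth factor receptors, with a log2 change of 1.08 ± 0.25 (adjusted p = 0.00258, limma). Jak2 was also lower in knockout than in wild-type control livers, by a log2 difference of -0.34 ± 0.10 (adjusted p = 0.038, limma). Prlr, the prolactin receptor of the same family, was lower in knockout on control (-0.89 ± 0.21, adjusted p = 0.0112, limma) and on ethanol (-0.998 ± 0.21, adjusted p = 0.00515, limma). Without knockout ethanol libraries 1 and 4 the second difference was -0.83 and not called (adjusted p = 0.102, limma).

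Sirpa, a receptor of myeloid cells, was among the genes of that list called higher in knockout. It was higher by a log2 difference of 1.42 ± 0.25 on control (adjusted p = 0.00142, limma) and 1.92 ± 0.25 on ethanol (adjusted p = 6.55e-05, limma). On ethanol 3 of 17 were higher, among them Sirpa and the phosphatase gene Ptpn6, and 1 was lower, Prlr, where 9.88% of all genes were called. Ptpn6 had a log2 difference of 0.63, and of 0.55 without knockout ethanol libraries 1 and 4, where it was not called (adjusted p = 0.0614, limma). The macrophage marker sums given above were higher in knockout on both treatments, and their part in these genes was not tested. Ethanol in knockout gave 3 higher and 2 lower of 17, where 19.2% of all genes were called. Ptpn11, which encodes the phosphatase SHP2, was higher by a log2 change of 0.50 (adjusted p = 0.00186, limma). Without ethanol libraries 1 and 4 the counts of the 17 were 2 higher and 0 lower between genotypes on ethanol, and 1 higher and 2 lower for ethanol in knockout.

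Igf1 (ENSMUSG00000020053, chr10:87858265-87937042, plus strand) had 9035, 9864, 7647 and 9293 normalised reads in knockout ethanol libraries, 14205, 10106, 8601 and 8246 in wild-type ethanol, 5721, 6497, 6094 and 6097 in knockout control and 8879, 9256, 9294 and 9187 in wild-type control. The knockout control libraries were all below the other 3 groups, which overlapped one another in part, and wild-type ethanol library 1 stood above all others. Knockout control livers had 0.666 of the wild-type control level (0.543 to 0.817, adjusted p = 0.012, limma). In knockout, ethanol raised Igf1 1.46-fold (1.19 to 1.79, adjusted p = 0.0114, limma), while Ghr was lower in the same libraries. Without knockout ethanol libraries 1 and 4 that rise was 0.51 on the log2 scale and not called (adjusted p = 0.102, limma). Ethanol in wild type gave a log2 change of 0.13 ± 0.14 (adjusted p = 0.476, limma), not called, with a fold interval of 0.895 to 1.35.

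Igfals (ENSMUSG00000046070, chr17:24865997-24882010, plus strand), the acid-labile subunit, had 543, 348, 934 and 539.8 normalised reads in wild-type ethanol and 1069, 1232, 861 and 1117 in wild-type control libraries. Wild-type ethanol library 3 overlapped the controls and the other 3 were below them. Ethanol took Igfals to 0.524 of control in wild type (0.377 to 0.729, adjusted p = 0.00386, limma). In knockout the means were 708 ± 164 on ethanol and 934 ± 91.1 on control (SD, n = 4 each), a log2 change of -0.42 ± 0.22 that was not called (adjusted p = 0.194, limma). Genotype gave log2 differences of -0.19 ± 0.22 on control and 0.32 ± 0.22 on ethanol (adjusted p = 0.652 and 0.418, limma), neither called.

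The IGF system list held 16 genes, of which Igf2 was not matched and Pappa, Pappa2 and Stc2 were below the filter. Of the 12 tested, 1 was higher and 2 were lower in knockout on control, where 11.6% of all genes were called. Igfbp2, a serum binding protein for IGF1, averaged 3499 ± 566 normalised reads in knockout and 6635 ± 1788 in wild-type control livers (SD, n = 4 each; adjusted p = 0.0108, limma). Igfbp3, the binding protein of the complex that Igfals joins, went the other way, with 189 ± 29.1 in knockout and 107 ± 9.62 in wild type (adjusted p = 0.0154, limma). Both kept their sign on ethanol, at log2 differences of -0.81 ± 0.21 for Igfbp2 and 0.78 ± 0.20 for Igfbp3 (adjusted p = 0.0215 and 0.0204, limma). Without knockout ethanol libraries 1 and 4 these were -0.54 and 0.65, and neither was called (adjusted p = 0.238 and 0.219, limma). Leaving out any 1 of knockout ethanol 1 or 2 and wild-type ethanol 1 or 2 ended the call of Igfbp2 (adjusted p = 0.0507 to 0.0712, limma). Any 1 of knockout ethanol 1, 2 or 4 and wild-type ethanol 4 ended that of Igfbp3 (adjusted p = 0.0543 to 0.0655, limma).

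Igfbp1, an IGF-binding protein that the liver makes in fasting and stress, was the largest change of the list with ethanol. It had 10588, 10810.0, 1545 and 2148 normalised reads in knockout ethanol and 22759.6, 25096, 1397 and 34976 in wild-type ethanol libraries, against means of 864 ± 383 in knockout control and 773 ± 285 in wild-type control livers (SD, n = 4 each). Wild-type ethanol library 3 and knockout ethanol libraries 3 and 4 were far below the rest of their groups. The fold for ethanol was 17.8 in wild type (5.26 to 60.4, adjusted p = 0.00102, limma) and 5.56 in knockout (1.64 to 18.9, adjusted p = 0.0466, limma). The log2 change in wild type was 5.23 without ethanol library 3, against 4.16 with it. The call in knockout was lost without any 1 of its control libraries or of ethanol libraries 1 and 2 (adjusted p = 0.0601 to 0.139, limma). In all, ethanol gave 2 higher and 1 lower of 12 in wild type, where 38% of all genes were called. In knockout 2 were higher and 0 lower, where 19.2% of all genes were called. Without knockout ethanol libraries 1 and 4, none of the 12 was called for ethanol in knockout by limma, with Igfbp1 at a log2 change of 2.37, against 2.48 with them, and an adjusted p of 0.177.

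Cish (ENSMUSG00000032578, chr9:107296026-107302784, plus strand) is the textbook immediate target of STAT5, and a pair of STAT5-type motifs lies at its start. The motif searched was TTCNNNGAA, which reads the same on both strands, in windows of 250 bases before to 50 after each RefSeq start on GRCm38.p6. Of 32851 promoters, 8.3% held at least 1 and 0.457% at least 2. The 10 genes had 14 promoters of 8 genes in the RefSeq table, and 5 promoters of Cish, Igfals and Bcl6 held the motif. Its letters are in capitals in the stretches printed here, which show those feedback, carrier and repressor genes; a match is a description of the letters, not a measured site.
Cish, chr9:107296654-107296683, plus strand: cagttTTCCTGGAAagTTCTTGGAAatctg
Igfals, chr17:24877600-24877624, plus strand: tctataatTTCTCAGAAaagaggct
Igfals, chr17:24878165-24878189, plus strand: gccaggtgTTCCTAGAAgaggccct

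Cish had 244, 408, 175 and 262 normalised reads in knockout ethanol, 725, 209.7, 235 and 425 in wild-type ethanol, 91.2, 21.8, 238 and 186 in knockout control and 104, 259, 83.9 and 96.5 in wild-type control libraries. Libraries of 1 group differed widely, and every pair of groups overlapped. The highest was 10.95 times the lowest in knockout control, 3.46 in wild-type ethanol, 3.09 in wild-type control and 2.33 in knockout ethanol, where Igf1 spanned at most 1.72. Ethanol raised Cish 2.87-fold in wild type (1.22 to 6.77, adjusted p = 0.0496, limma), a value at the edge of the threshold. Without wild-type control library 1, 3 or 4 the change was not called (adjusted p = 0.101, 0.119 and 0.108, limma) nor was it without wild-type ethanol library 1 or 4 (0.152 and 0.0969). In knockout the log2 change was 1.40 ± 0.59 and not called (adjusted p = 0.103, limma); without knockout control library 3 it was called (1.83, adjusted p = 0.0352, limma), and without knockout control library 2 it was 0.70 (adjusted p = 0.33, limma).

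Socs2 (ENSMUSG00000020027, chr10:95385362-95417180, minus strand), whose loss gives oversized mice, had 155, 304, 253 and 264 normalised reads in knockout ethanol and 789, 155, 304 and 604 in wild-type ethanol libraries. It had 76.7, 121, 220.1 and 77.4 in knockout control and 118, 388, 185 and 145 in wild-type control libraries. The groups overlapped, and no comparison was called. The log2 changes with ethanol were 1.07 ± 0.46 in knockout (adjusted p = 0.113, limma) and 1.04 ± 0.46 in wild type (adjusted p = 0.0857, limma). Leaving out 1 library gave a call in wild type, with an adjusted p of 0.0294 without wild-type control library 2 and of 0.0143 without wild-type ethanol library 2 (limma), and in knockout the adjusted p was 0.0433 without knockout control library 3.

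Of the 8 SOCS family genes, ethanol in wild type raised 3, Cish, Socs5 and Socs7, and lowered 0. The list median log2 change was 0.74, and 38% of all genes were called, 18.9% higher and 19% lower. Ethanol in knockout raised 1, where 10.2% of all genes were higher. This was Socs5, by 0.63 ± 0.16 (adjusted p = 0.0128, limma), and by 0.59 without ethanol libraries 1 and 4, not called (adjusted p = 0.106, limma). Socs1, which restrains interferon receptors, was the 1 called between genotypes on control, where 11.6% of all genes were called. It had 18.2 ± 4.22 normalised reads in knockout and 3.07 ± 1.32 in wild type (SD, n = 4 each; adjusted p = 0.024, limma). Socs1 passed the filter on low values only through knockout control, where it was highest, together with wild-type ethanol (mean 15.4), so the call supports nothing here. Leaving out any one of knockout control libraries 1 and 4 and wild-type control libraries 1, 3 and 4 ended that call (adjusted p = 0.0526 to 0.069, limma).

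Within groups, the ranks of the libraries by Cish, Socs2 and Bcl6 matched in part. In wild-type ethanol, Cish and Socs2 ranked the libraries alike, 1, 4, 3, 2 from high to low. In wild-type control, library 2 was highest for both and lowest for Bcl6, and library 3 was lowest for Cish and highest for Bcl6. In knockout control, library 2 had the lowest Cish, 21.8 normalised reads, and the highest Bcl6, 1016, and library 3 had the highest Cish and the lowest Bcl6. In knockout ethanol, library 2 had the highest Cish and Socs2 and the lowest Bcl6. Other ranks did not match. In wild-type ethanol, library 1 had the highest Cish and the second highest Bcl6. In knockout control, library 2, lowest for Cish, was second highest for Socs2, and in wild-type control library 3, lowest for Cish, was second highest for Socs2 and library 1, second highest for Cish, lowest for Socs2. In knockout ethanol, library 3 had the lowest Cish and library 1 the lowest Socs2. These ranks are of 4 libraries a group and carry no test, and neither a time of day nor a growth hormone level is in the labels.

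**Figure D3:**
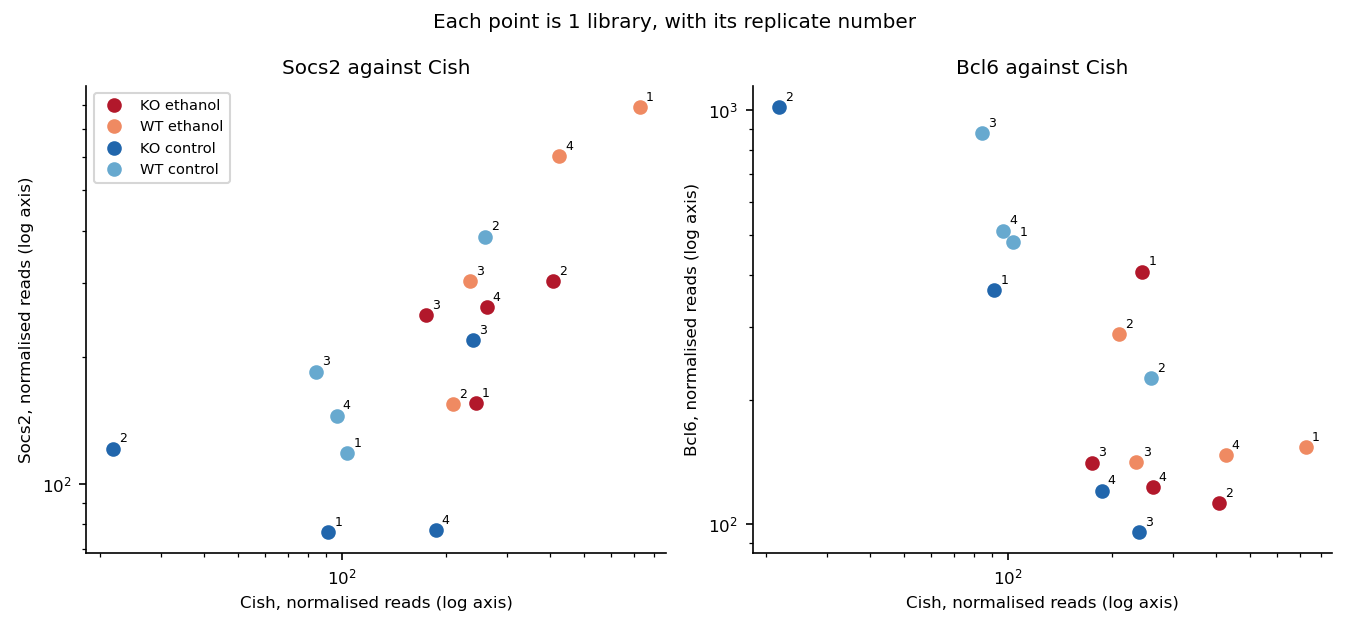
Socs2 (left) and Bcl6 (right) against Cish, in normalised reads on log axes, 1 point per library with its replicate number, coloured by group. The points run from knockout control library 2 with 21.8 Cish and 1016 Bcl6 to wild-type ethanol library 1 with 725 Cish and 789 Socs2.

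Bcl6 (ENSMUSG00000022508, chr16:23965052-23988852, minus strand) had 407, 112, 141 and 123 normalised reads in knockout ethanol, 154, 288, 141 and 147 in wild-type ethanol, 368, 1016, 95.8 and 121 in knockout control and 480.2, 226, 879 and 512 in wild-type control libraries. The control libraries spread most, with a highest to lowest ratio of 10.6 in knockout, and every pair of groups overlapped. No comparison was called. Ethanol in wild type gave a log2 change of -1.43 ± 0.61 (adjusted p = 0.0728, limma), called without wild-type control library 2 (-1.78, adjusted p = 0.0409, limma) and in a fit of the wild-type libraries alone (adjusted p = 0.0148, limma). The 250 bases before 2 of its starts hold 3 motifs and 1 motif of the kind described for Cish, and 0.0335% of all promoters, 11 of 32851, hold 3 or more.
Bcl6, chr16:23981284-23981533, minus strand: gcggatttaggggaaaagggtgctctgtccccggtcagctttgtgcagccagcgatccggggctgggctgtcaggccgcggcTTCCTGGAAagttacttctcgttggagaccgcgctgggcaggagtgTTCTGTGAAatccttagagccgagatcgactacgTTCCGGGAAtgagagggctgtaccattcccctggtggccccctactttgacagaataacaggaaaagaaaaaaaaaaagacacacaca
Bcl6, chr16:23988853-23989102, minus strand: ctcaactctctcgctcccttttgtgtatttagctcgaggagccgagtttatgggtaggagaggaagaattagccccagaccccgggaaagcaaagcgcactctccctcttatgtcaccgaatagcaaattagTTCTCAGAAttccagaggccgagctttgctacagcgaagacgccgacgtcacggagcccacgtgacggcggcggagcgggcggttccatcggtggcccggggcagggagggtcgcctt

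Cux2 (ENSMUSG00000042589, chr5:121856366-122050102, minus strand), near silent in male mouse liver, had 3.93, 35.8, 35.6 and 3.85 normalised reads in knockout ethanol and 178, 26.8, 100.3 and 532 in wild-type ethanol libraries. In knockout control it had 6.22, 2.84, 6.45 and 5.40 and in wild-type control 2.96, 6.96, 2.27 and 6.23. All wild-type ethanol libraries were above all control libraries, whereas knockout ethanol libraries 1 and 4 were in the control range and libraries 2 and 3 above it. Ethanol raised Cux2 24.5-fold in wild type (7.76 to 77.5, adjusted p = 0.000276, limma). Cux2 passed the filter on low values only through its values on ethanol, highest in wild type, so this call supports nothing here. The log2 change of 4.62 was 5.35 without wild-type ethanol library 2 and 3.93 without library 4. In knockout the change was 1.15 ± 0.79 and not called (adjusted p = 0.318, limma); without ethanol libraries 1 and 4 it was 2.61, also not called (adjusted p = 0.0575, limma), and edgeR and DESeq2 each gave 1.93 (adjusted p = 0.174 and 0.113).

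On ethanol, knockout livers had 0.105 of the wild-type Cux2 level (0.0331 to 0.331, adjusted p = 0.0134, limma), with groups that overlapped. This call too rests on the group through which Cux2 passed the filter, and supports nothing here. The call was lost without knockout ethanol library 4 (-2.77, adjusted p = 0.0533, limma), without libraries 1 and 4 (-1.80, adjusted p = 0.263, limma) and in a fit of the ethanol groups alone (adjusted p = 0.0707, limma), as well as with libraries 1 and 2 of both groups alone (adjusted p = 0.139, limma). The log2 difference was -3.99 without wild-type ethanol library 2 and -2.57 without library 4. Libraries 1 and 4 of the knockout ethanol group were those that carried Ctrb1 and Hba-a1, and the part of that RNA in the low Cux2 was not tested.

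Of 16 transcription regulators of sex-biased and growth hormone responsive liver genes, ethanol in wild type raised 7 and lowered 2, with a median log2 change of 0.63, and ethanol in knockout raised 4 and lowered 1. Over all genes, 38% were called with ethanol in wild type and 19.2% in knockout. Trim24, a nuclear receptor cofactor, averaged 1110.1 ± 291 normalised reads in wild-type ethanol and 329 ± 43.0 in wild-type control livers (SD, n = 4 each; adjusted p = 2.55e-06, limma) and was also higher with ethanol in knockout, by 0.89 ± 0.17 (adjusted p = 0.00233, limma). Cebpa, a factor of mature hepatocytes, fell with ethanol in wild type, by a log2 change of -1.04 ± 0.15 (adjusted p = 8.44e-05, limma). Tox, a female-biased regulator, rose with ethanol in knockout (1.18 ± 0.30, adjusted p = 0.0111, limma), but not without libraries 1 and 4 (adjusted p = 0.121, limma). Genotype gave 0 higher and 1 lower of the 16 on control, where 11.6% of all genes were called, the nuclear receptor gene Rora (-0.62 ± 0.17, adjusted p = 0.0223, limma; 0.052 to 0.0685 without knockout control library 3 or 4 or wild-type control library 3), and 0 higher and 2 lower on ethanol, where 9.88% were, Cux2 and the corepressor gene Ncor1 (-0.26 ± 0.081, adjusted p = 0.0483, limma; 0.0865 with the replicate number as a block, and 0.0588 to 0.135 with any ethanol library left out). Without knockout ethanol libraries 1 and 4, neither direction held a call between genotypes on ethanol, and ethanol in knockout raised 2 of the 16 and lowered 0.

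Hsd3b5 (ENSMUSG00000038092, chr3:98618634-98630252, minus strand), a male-specific steroid reductase gene of mouse liver, fell to a few reads with ethanol. It had 17.7, 7.15, 7.13 and 27.9 normalised reads in knockout ethanol and 34.4, 24.5, 25.1 and 4.58 in wild-type ethanol libraries, against 313, 612, 863 and 1278 in knockout control and 2612, 3977, 1914 and 3657 in wild-type control. The ethanol groups overlapped each other and lay below every control library, and the knockout control libraries lay below the wild-type ones. Ethanol took Hsd3b5 to 0.00652 of control in wild type (0.00295 to 0.0144, adjusted p = 1.58e-07, limma) and to 0.0203 in knockout (0.00916 to 0.0448, adjusted p = 6.29e-06, limma). The log2 change was -6.67 in wild type without ethanol library 4 and -6.38 in knockout without ethanol libraries 1 and 4. On control, knockout livers had 0.232 of the wild-type level (0.105 to 0.514, adjusted p = 0.0187, limma), which did not pass without knockout control library 1 (adjusted p = 0.059, limma) or wild-type control library 4 (0.0576). Hsd3b genes are near-identical copies, so reads may be shared among them.

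Mup20 (ENSMUSG00000078672, chr4:62050234-62054158, minus strand) encodes darcin, the major urinary protein that serves male mice as a pheromone. It had 23465, 41043, 24342 and 14281 normalised reads in knockout ethanol and 5178, 11726, 4121 and 2091 in wild-type ethanol libraries, which did not overlap. It had 57392, 48649, 29934 and 45017 in knockout control and 26767, 14359, 30002 and 26942 in wild-type control, which overlapped by 1 library. On ethanol the knockout level was 5.03 times the wild-type level (2.75 to 9.20, adjusted p = 0.0013, limma). On control the fold was 1.87 (1.02 to 3.41, adjusted p = 0.176, limma) and not called, though a fit of the control groups alone called it (adjusted p = 0.0489, limma). Ethanol lowered Mup20 to 0.203 of control in wild type (0.111 to 0.371, adjusted p = 0.00042, limma), and the log2 change in knockout was -0.87 ± 0.41, not called (adjusted p = 0.146, limma).

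The major urinary protein genes moved both ways with genotype on ethanol. Of 22 listed genes 17 were tested, and several of the family are near-identical copies whose reads may be split between them, while others, Mup3, Mup4, Mup20 and Mup21 among them, are more divergent in sequence. In knockout on control 0 were higher and 6 lower, where 6.4% of all genes were higher and 5.24% lower. The median log2 difference was -0.87. Among the lower were Mup12 (-2.31 ± 0.31, adjusted p = 0.000114, limma) and Mup1 (-1.74 ± 0.28, adjusted p = 0.000663, limma). On ethanol 3 were higher in knockout, Mup20, Mup21 and Mup14, and 2 lower, Mup1 and Mup12, where 6.13% of all genes were higher and 3.75% lower. Without knockout ethanol libraries 1 and 4, 2 were higher and 4 lower. With libraries 1 and 2 of both ethanol groups alone, 2 were higher and 5 lower, and with libraries 3 and 4 alone 3 and 1. Mup21 had 1220.3 ± 557 normalised reads in knockout ethanol and 175 ± 138 in wild-type ethanol livers (SD, n = 4 each; adjusted p = 0.000918, limma), a log2 difference of 3.22 that was 2.51 without wild-type ethanol library 4. Ethanol in wild type lowered 8 of 17 and raised 0, where 19% of all genes were lower and 18.9% higher. Mup3, for example, had 39402 ± 15352 on ethanol and 117453 ± 17488 on control (SD, n = 4 each; adjusted p = 0.000221, limma). Ethanol in knockout lowered 1, where 9.01% of all genes were lower. This was Mup15, at the edge of the threshold (adjusted p = 0.0497, limma). Of the fits with 1 library left out, that without knockout ethanol library 4 called it (adjusted p = 0.00183, limma), and without the others it was 0.065 to 0.159.

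**Figure D4:**
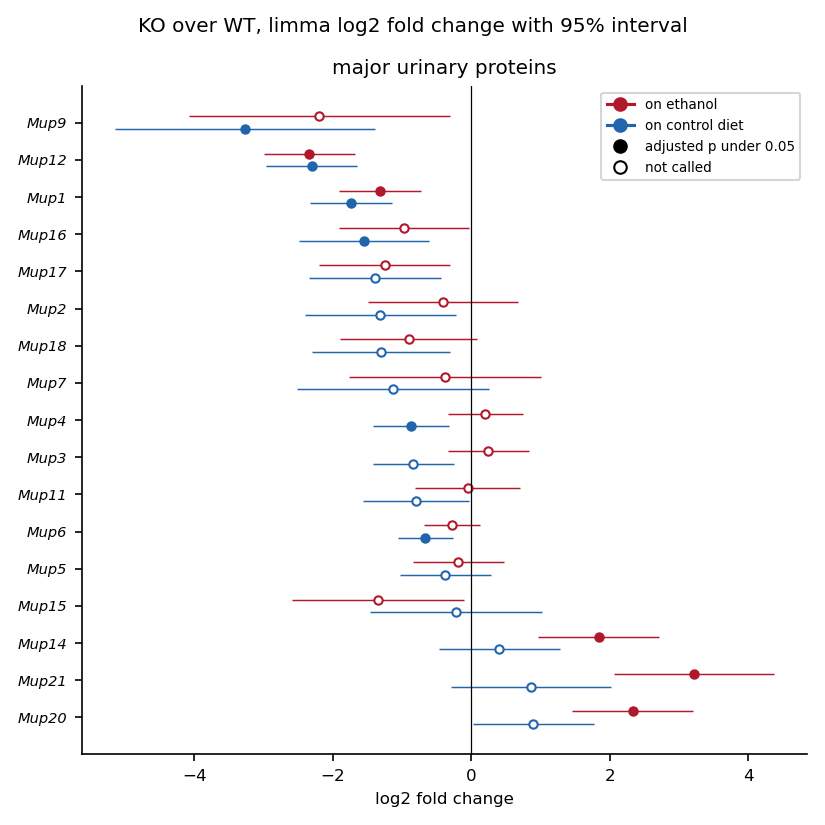
limma log2 fold changes of knockout over wild type for the 17 major urinary protein genes tested, on ethanol (red) and on control (blue), with 95% intervals, filled points where called and open points where not. Mup20, Mup21 and Mup14 lay to the right of 0 and were called on ethanol, and Mup1 and Mup12 lay to the left and were called on both treatments.

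Of 30 male-biased genes, Hsd3b5 and Mup20 included, 28 were tested. Ethanol in wild type lowered 15 and raised 1, with a median log2 change of -1.55 where the median of all genes was -0.0091. Of all genes, 19% were lower and 18.9% higher in that comparison. Nudt7, a peroxisomal coenzyme A hydrolase gene, fell in both genotypes with ethanol, by log2 changes of -1.85 ± 0.14 in knockout and -2.55 ± 0.14 in wild type (adjusted p = 1.47e-06 and 6.48e-09, limma). Serpina12, which encodes the adipokine vaspin, had a log2 change of -1.90 ± 0.19 with ethanol in wild type (adjusted p = 2.06e-06, limma). In knockout ethanol lowered 6 and raised 0, with a median of -0.58, where 9.01% of all genes were lower and 10.2% higher.

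Between genotypes the male-biased genes moved both ways. On control 3 were higher and 4 lower in knockout, where 6.4% of all genes were higher and 5.24% lower. Gstp2, a glutathione transferase whose reads may be shared with Gstp1, was higher by 2.45 ± 0.40 (adjusted p = 0.000784, limma). On ethanol 7 were higher and 3 lower, where 6.13% of all genes were higher and 3.75% lower. Cyp4a12a, an androgen-dependent fatty acid hydroxylase, had 3558, 2909, 1402 and 2621 normalised reads in knockout ethanol and 561, 465, 652 and 172 in wild-type ethanol libraries, with no overlap (log2 difference 2.58 ± 0.33, adjusted p = 5.58e-05, limma). Its neighbour copy Cyp4a12b, with which it may share reads, differed by 2.43 ± 0.28 (adjusted p = 1.50e-05, limma).

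Of 35 female-biased genes, Cux2 included, Cyp3a41a and Sult3a2 were not matched and 10 were below the filter, which left 23. Ethanol raised 11 and lowered 1 in wild type (median log2 change 0.98), and raised 8 and lowered 1 in knockout (0.85). Over all genes, 18.9% were higher and 19% lower in wild type, and 10.2% higher and 9.01% lower in knockout. Some of the 23, Cux2 and Cyp2b13 among them, passed the filter on low values only through their values on ethanol. The counts and medians are therefore tilted toward genes that ethanol raised. Cyp2b10, the classical target of the xenobiotic receptor CAR, had 4731, 13265, 11816 and 10559.5 normalised reads in knockout ethanol and 18007, 19134, 15604 and 15001 in wild-type ethanol libraries. It had 77.7, 26.5, 41.4 and 23.4 in knockout control and 10.8, 1.99, 2.27 and 5.19 in wild-type control, below every ethanol library. Atp6v0d2, a proton pump subunit, rose with ethanol in wild type by 2.69 ± 0.42 (adjusted p = 0.000127, limma). In knockout Cyp39a1, an oxysterol hydroxylase, rose by 1.41 ± 0.24 and Fmo2, a flavin monooxygenase, by 1.22 ± 0.24 (adjusted p = 0.000948 and 0.0022, limma).

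Between genotypes, 3 female-biased genes were higher and 5 lower in knockout on control, and 1 was higher and 7 lower on ethanol, with median log2 differences of -0.73 and -0.79. Among all genes, 6.4% were higher and 5.24% lower on control, and 6.13% higher and 3.75% lower on ethanol. Cyp2c40, a steroid and fatty acid hydroxylase whose reads may be shared with other Cyp2c genes, was among those lower on ethanol, with 0.984, 1.02, 0 and 1.92 normalised reads in knockout ethanol and 11.1, 10.5, 26.0 and 132 in wild-type ethanol libraries, which did not overlap (adjusted p = 0.00171, limma). It was not called with libraries 1 and 2 of both ethanol groups alone (adjusted p = 0.0525, limma). Cyp2c40 averaged 7.97 normalised reads in knockout control and 0.982 in knockout ethanol, and passed the filter on low values only through wild type. Its call therefore supports nothing here. Ntrk2, the receptor of the neurotrophin BDNF, was higher in knockout on control (3.88 ± 0.58, adjusted p = 0.000359, limma) and on ethanol (3.30 ± 0.58, adjusted p = 0.00132, limma), which was not called with libraries 3 and 4 of both ethanol groups alone (2.42, adjusted p = 0.145, limma). Ntrk2 averaged 7.97 normalised reads in wild-type control and 10.3 in wild-type ethanol, and passed the filter on low values through its knockout values. These calls, which the counts above include, support nothing here. Cyp2a4, a testosterone hydroxylase whose reads may be shared with other Cyp2a genes, had 3101, 1325, 100.4 and 313 normalised reads in knockout control and 1.97, 32.8, 37.4 and 4.15 in wild-type control libraries (log2 difference 5.66 ± 1.11, adjusted p = 0.00351, limma). That difference was 4.87 without knockout control library 1, 6.52 without knockout control library 3 and 4.997 without wild-type control library 1. Without knockout ethanol libraries 1 and 4, 1 was higher and 1 lower in knockout on ethanol, and ethanol in knockout raised 3 and lowered 0.

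**Figure D5:**
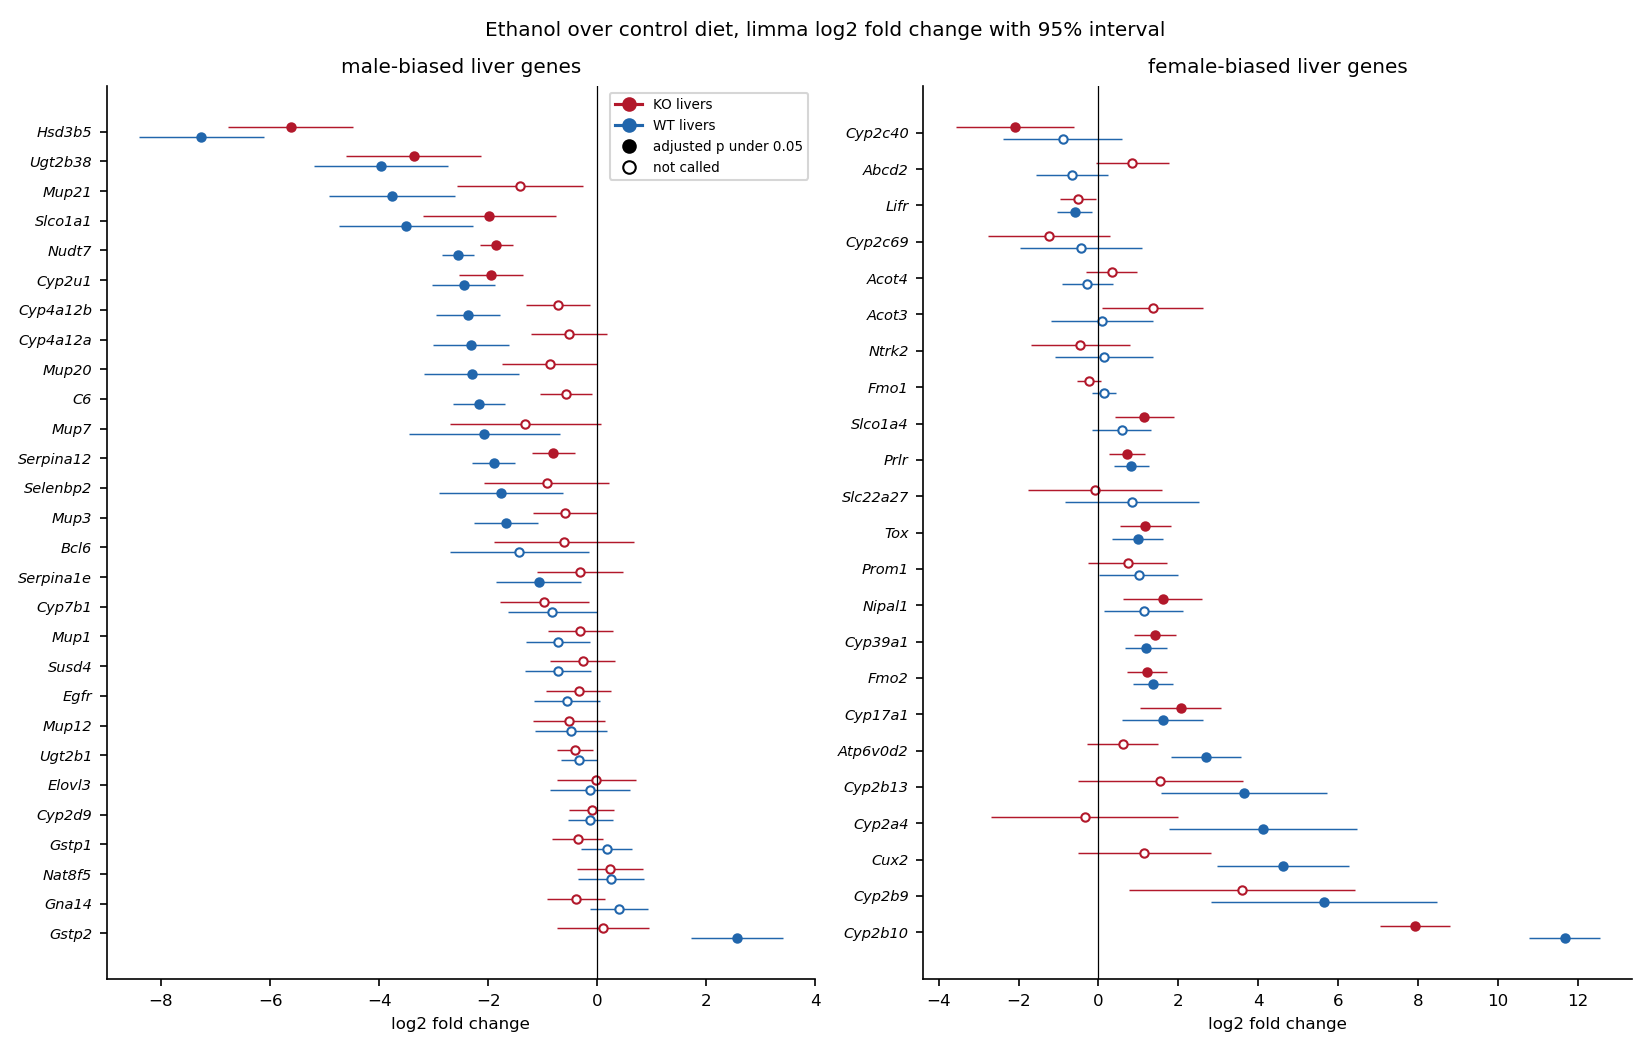
limma log2 fold changes of ethanol over control for the 28 male-biased (left) and 23 female-biased (right) genes tested, in knockout (red) and wild-type (blue) livers, with 95% intervals, filled points where called and open points where not. Hsd3b5 was farthest below 0 among the male-biased genes and Cyp2b10 farthest above 0 among the female-biased genes, in both genotypes.

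The question of whether ethanol acted differently by genotype was put to the difference of the ethanol effects. By limma 0 of the 10 genes were called, 4 had an unadjusted p under 0.05, and 0.347% of all genes were called. edgeR also called 0 of the 10, beside 0.226% of all genes, and DESeq2 called 1, beside 2% of all genes. The ethanol effect in knockout minus that in wild type was 0.62 ± 0.17 for Ghr on the log2 scale (adjusted p = 0.126, limma), and this was the gene DESeq2 called (0.61, adjusted p = 0.0428, DESeq2). The difference was -3.46 ± 1.11 for Cux2 (adjusted p = 0.189, limma), 1.43 ± 0.58 for Mup20 (adjusted p = 0.304, limma), 1.64 ± 0.77 for Hsd3b5 (adjusted p = 0.369, limma) and 0.42 ± 0.20 for Igf1 (adjusted p = 0.377, limma). Without wild-type ethanol library 2 the difference of Cux2 was -4.20, without wild-type ethanol library 4 it was -2.78, and without knockout ethanol libraries 1 and 4 it was -2.01. For Hsd3b5 it was 1.05 without wild-type ethanol library 4 and 0.88 without knockout ethanol libraries 1 and 4. None of these was called. Of the sex-biased lists, the male-biased gene C6 and the female-biased gene Cyp2b10 were called, Cyp2b10 with a wild-type control mean of 5.07 normalised reads. A call in 1 genotype and none in the other is therefore not shown to be a difference for any of the 10 genes.

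By the root mean square difference between values scaled to mean 0 and SD 1 over the 16 libraries, the genes nearest to Ghr were Slc25a23 (0.217), Lrit1 (0.235) and Sult2a8 (0.238). Nearest to Hsd3b5 were Ttc39c (0.239), Lama3 (0.277) and Birc3 (0.278). Nearest to Igf1 were Itih2 (0.441), Enpp1 (0.447) and Usp7 (0.468), and nearest to Cish were Sbf1 (0.484), Zfp507 (0.488) and Myo18a (0.489). Igf1 and Cish thus had no gene as near as those of Ghr and Hsd3b5.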

How the data were processed

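Livers were snap frozen and total RNA was taken with Trizol, and libraries were read as 75 bp single reads on an Illumina NextSeq, per the labels' protocols. HISAT2 2.1.0.13, HTSeq, edgeR and build GRCm38 are named in the submitters' processing notes; no source used here gives the annotation release or the strand setting, so reads of overlapping antisense genes cannot be told apart. The deposited values are a signal per gene and library, which the authors made by dividing counts by 1 size factor per library (0.814 to 1.26). All values came out as whole reads within 0.01. Of 27288 identifiers, 27233 matched a symbol in GENCODE M21 on GRCm38 and 55 did not. Replicates differed by more than counting noise (mean chi-square per gene 9.95 to 108), so each counted as 1 sample.

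limma 3.58.1 in R 4.3.3 was run on log2(value + 1) with a trend, for 13256 genes with a mean of at least 10, as 1 fit of 4 group means and 5 contrasts, two-sided; called means a Benjamini-Hochberg adjusted p under 0.05 over those genes. The procedure was tested on simulated data. Alternatives were pseudocounts of 0.25 and 4, no filter and a floor of 50, fits of the compared groups alone, the replicate number as a block, the quasi-likelihood test of edgeR 4.0.16 with TMM factors, DESeq2 1.42.0 (both on recovered reads), each library left out in turn, the ethanol comparisons without knockout libraries 1 and 4, and libraries 1 and 2, or 3 and 4, of both ethanol groups alone. Counts of called genes per list without libraries 1 and 4, or with libraries 1 and 2 or 3 and 4 alone, were added after seeing the data.

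Same-numbered libraries of the ethanol groups deviated together (r = 0.102 to 0.246 across genes, all 4 pairs), against -0.125 to 0.037 between other groups. Differently numbered libraries of the ethanol groups had r = -0.250 to 0.199, which reaches into the first range. Ethanol libraries 1 and 2 also stood apart from 3 and 4. In wild-type ethanol the mean chi-square per gene was 13.4 between 1 and 2, 34.3 between 3 and 4, and 63.0 to 107.5 across. In knockout ethanol it was 20.0, 10.4, and 27.5 to 32.0 across. Pairs by number therefore cannot be told from a split of 1 and 2 from 3 and 4. No label explains the numbers, and the main fit used no pairing. The 10 genes and all lists were chosen with earlier results of these data known. Named were the 10 genes, up to 3 called genes with the smallest p per list and comparison, and the 3 tested genes nearest in pattern to Ghr, Igf1, Cish and Hsd3b5, without predicted genes; the text names some of these, and 1 gene the rule takes is not reported here. Mup14, the values of Jak2 and Prlr on control, Cyp2b9, Cyp2b13, Slco1a1 and the markers Ddx3y, Xist, Ctrb1, Hba-a1 and Adipoq, were chosen after their values were seen. Promoter sequences are from RefSeq.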

Additional observations from a re-analysis of the deposited data

Results flagged for a closer look

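Of 40 gene-by-group sets of 4 libraries, 4 had 1 library whose gap to the next was over Dixon's critical share of the group's range, and chance flags about 1 in 20 groups. Wild-type control library 4 had 9745 normalised reads of Ghr, above the other 3. Wild-type control library 2 had 259 of Cish, above the other 3, and the same library had the lowest Bcl6 of its group. Bcl6 stood apart upward in knockout ethanol library 1, at 407, and in wild-type ethanol library 2, at 288. The ethanol effect differed by genotype for C6, a complement component, by 1.59 ± 0.32 on the log2 scale (adjusted p = 0.045, limma). C6 averaged 2305 ± 347 normalised reads in knockout ethanol, 901 ± 259 in wild-type ethanol, 3579 ± 1182 in knockout control and 3928 ± 348 in wild-type control livers (SD, n = 4 each). It was lost with the replicate block (adjusted p = 0.0739, limma) and with edgeR (0.0557), and in 12 of 16 fits with 1 library left out (0.0571 to 0.0932). For Cyp2b10 the difference was -3.74 ± 0.59 (adjusted p = 0.0147, limma), with 10093 ± 3742 normalised reads in knockout ethanol, 16936 ± 1957 in wild-type ethanol, 42.3 ± 24.9 in knockout control and 5.07 ± 4.11 in wild-type control livers. Without knockout ethanol libraries 1 and 4 it was -3.33 and not called (adjusted p = 0.148, limma). The wild-type control mean was under the filter, so the size of this difference rests on values near the floor. With a pseudocount of 4 it was -3.15 (adjusted p = 0.0181, limma).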

How the results depend on the processing

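Over 27 settings, 156 of 184 summary counts stayed within 1.5 times the main count. Genes called in knockout against wild type numbered 1544 on control and 922 to 1360 with 1 library left out. On ethanol they numbered 1310, and 848 to 1685 with 1 left out, 497 without knockout libraries 1 and 4, and 451 with libraries 3 and 4 alone. Of the 10 genes, 2 were called there, and 1 with the compared groups alone, without knockout libraries 1 and 4, with libraries 1 and 2 alone, and in the lowest of 1 to 2 with 1 left out. For ethanol in knockout 2543 genes were called, 1745 to 2947 with 1 left out and 1002 without libraries 1 and 4, and of the 10 genes 3, or 3 to 5 with 1 left out. For ethanol in wild type, 6 of the 10 were called, and 5 to 8 with 1 left out. The difference of the ethanol effects gave 46 genes, 24 with the replicate block, 30 with edgeR, 265 with DESeq2, 9 to 215 with 1 left out and 0 without libraries 1 and 4, and of the 10 genes 0, or 1 with DESeq2. The causes were not tested.

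Values near 0 that changed sign were all of uncalled genes. For genotype on ethanol they were Stat5b 0.023 and Bcl6 0.0261 with libraries 1 and 2 alone, Igf1 0.0015 and Hsd3b5 0.345 with libraries 3 and 4 alone, and Bcl6 0.134 with edgeR and 0.108 with DESeq2. Stat5b for ethanol in knockout was 0.0131 with edgeR and 0.0077 with DESeq2, and Cish for genotype on control was 0.002 with edgeR. With 1 library left out, Stat5b ran from -0.0735 to 0.0454 for ethanol in wild type and -0.0816 to 0.0841 in knockout, Igf1 from -0.0325 to 0.229 for ethanol in wild type, Cish from -0.742 to 0.389 and Cux2 from -0.0184 to 0.424 for genotype on control, and Bcl6 from -0.474 to 0.191 for genotype on ethanol and -1.08 to 0.051 for ethanol in knockout.

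With the replicate block, of the genes named, Ncor1 alone lost its call for genotype on ethanol. For the other comparisons, the block ended the calls of Cish for ethanol in wild type (adjusted p = 0.0708, limma), C6 for the difference and Mup15 for ethanol in knockout. Depth limits Cux2 on control and Hsd3b5 on ethanol. Among the other genes named it limits Gstp2, Cyp2a4, Cyp2b10, Cyp2b13, Cyp2c40, Ntrk2, Vldlr, Socs1 and Mup15 in their low groups, where libraries held few reads.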

Other observations

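Lipid genes known to be higher in mouse livers that lack growth hormone signalling were listed beside the axis, 7 in all, of which Mogat1 and Cidea were below the filter. Ethanol raised 4 of the 5 tested and lowered 0 in each genotype, with median log2 changes of 2.95 in knockout and 2.40 in wild type. Over all genes, 10.2% were higher in knockout and 18.9% in wild type. Cidec, a lipid droplet protein gene, rose by 4.23 ± 0.33 in knockout and 4.32 ± 0.33 in wild type (adjusted p = 1.47e-06 and 1.77e-07, limma). Plin4, another droplet coat gene, rose by 2.95 ± 0.45 in knockout and 3.44 ± 0.45 in wild type (adjusted p = 0.000359 and 2.61e-05, limma). Cd36, a fatty acid uptake receptor that macrophages also carry, averaged 1528 ± 237 normalised reads in knockout control and 529 ± 139.5 in wild-type control livers (SD, n = 4 each; adjusted p = 6.35e-05, limma). Vldlr, a lipoprotein receptor, was lower in knockout on control (-1.87 ± 0.27, adjusted p = 0.000248, limma) and on ethanol (-1.23 ± 0.27, adjusted p = 0.00732, limma). On ethanol it was -0.95 and not called without knockout ethanol libraries 1 and 4 (adjusted p = 0.151, limma). Adipoq, a fat cell gene, had 9.8 and 18.3 normalised reads in knockout ethanol libraries 1 and 4 and 0 in the others, and summed reads of 6 adipocyte markers were 252 to 551 in knockout ethanol, 229 to 459 in wild-type ethanol, 98.4 to 145 in knockout control and 78.5 to 144 in wild-type control libraries. Of the 2 of these markers tested, 1 was called higher with ethanol in each genotype, and their part in the lipid genes was not tested. Without ethanol libraries 1 and 4, ethanol in knockout raised 3 of the 5 lipid genes.

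Wild-type ethanol library 4 stood apart on some of the sex-biased genes, which were picked here after their values were seen. It had the highest Cux2 of all libraries, 532.5 normalised reads, and the lowest Hsd3b5, 4.58, and Mup20, 2090.5. The female-biased Cyp2b9 had 146, 279.6, 454 and 6139.6 normalised reads in wild-type ethanol libraries 1 to 4, and Cyp2b13 had 8.60, 9.32, 2.79 and 272. The male-biased transporter gene Slco1a1 had 1028, 1565, 2084 and 138. Other genes of these lists did not set library 4 apart. The female-biased Cyp2b10 was lowest of its group there, at 15001 normalised reads. The female-biased Atp6v0d2 had 276, 128, 165 and 194 in wild-type ethanol libraries 1 to 4. Xist was at most 9.3 in every library.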
